A study of Zea mays with 4 samples.

Results

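The O11 sites at the extreme ends of the 10 maize chromosomes numbered 1,803 of 9,856 sites found in both replicates. Opaque11 (O11) is a transcription factor of the basic helix-loop-helix family, and the sites are places where an antibody against O11 recovered more DNA from wild-type (WT) kernels than from kernels of the homozygous o11 mutant (o11/o11), which the series text describes as accumulating no O11 protein. A site was a replicate 1 peak on chromosomes 1 to 10 that shared at least 1 bp with some peak of replicate 2. It counted as an end site when its summit lay in the first 5% or the last 5% of the chromosome, whose length was taken as the highest peak end in either list. The lower-coordinate ends, where positions start, held 857 of these sites, and the higher-coordinate ends held 946. Of all replicate 1 peaks on the 10 chromosomes, 9,856 of 14,746 (66.8%) overlapped a replicate 2 peak, and that overlap is part of how the sites were chosen. At the threshold itself, the nearest sites inside were at 4.99% of chromosome 1 (folds of 10.9 and 8.60 in replicates 1 and 2) and at 95.003% of chromosome 7 (5.69 and 11.8). The nearest sites outside were at 5.002% of chromosome 9 (6.01 and 3.97) and at 94.99% of chromosome 5 (5.73 and 6.88).

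Chromatin came from whole kernels of Zea mays 15 days after pollination, fixed with formaldehyde, precipitated with a rabbit antibody raised against recombinant O11 and sequenced (ChIP-seq). WT kernels gave 2 libraries and o11/o11 kernels gave 2, 1 of each per replicate number, and the same antibody was used on both genotypes. The labels name no strain for either genotype. Whole kernels mix endosperm, embryo and maternal tissue, so a site is an average over these tissues.

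Basic helix-loop-helix proteins bind DNA as dimers at short E-box elements. O11 acts in the endosperm, the starch- and protein-storing tissue of the kernel, where it is known as a regulator of other transcription factors of storage and development. In maize the chromosome arms towards their tips are richer in genes, while repeats and retrotransposons fill the regions around the centromeres, and the short arm of chromosome 6 carries the nucleolus organizer with the ribosomal RNA genes.

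Each deposited list gives the WT coverage over a peak's summit (its pileup) and the fold enrichment of WT over o11, and both are the authors' own values. The local o11 background behind each fold was worked back from the pair, by dividing pileup + 1 by the fold and taking off 1. The lists give no library totals, so depth is unknown, and pileups of replicate 2 had been scaled in steps of 0.857. Backgrounds went no lower than 1.62 in the first list and 0.78 in the second, and 100 of the end sites (5.55%) stood on that lowest value in replicate 1, against 6.15% of the other shared sites. Folds of the 2 lists therefore have different scales, and every comparison of places was made within a list. An exact permutation test over 2 lists cannot reach a threshold of 0.05, and sites are not replicates of a condition, so differences are given as values with 95% intervals for counting error and without p-values.

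The chromosome ends were crowded with O11 sites. The outer 5% at both ends together make up 10% of the length by definition and held 18.3% of the shared sites (Wilson interval 17.5 to 19.1). This was 8.76 sites per Mb, against 4.35 per Mb in the 90% between. The adjoining bands, the next 5% of the length inwards from each end, held 1,724 sites (17.5%), or 8.38 per Mb. Among the 20 ends, 10 held more sites than their adjoining band and 10 held fewer. Density from 25% to 75% of the length was 2.91 per Mb. The crowding was thus shared with the adjoining bands and was not particular to the outer 5%. The lower ends had 8.33 per Mb and the higher ends 9.20 per Mb. In windows of 1 Mb lying wholly inside the ends, the median number of sites was 7 (quartiles 4 and 12, 191 windows), and in those wholly outside it was 3 (quartiles 1 and 6, 1,841 windows). Windows with 15 or more sites made up 18.8% of the end windows and 3.15% of the others.

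Crowding was not the same at every end. Of the 20 ends, 18 held more than 5% of their chromosome's shared sites, and the interval lay above 5% at 14 of them. The densest was the higher end of chromosome 5, with 161 sites in 10.9 Mb, or 14.8 per Mb, against 4.51 per Mb in the body of that chromosome. It was followed by the lower end of chromosome 2 (157 sites, 13.2 per Mb), the higher end of chromosome 10 (92 sites, 12.3 per Mb), the lower end of chromosome 5 (132 sites, 12.1 per Mb) and the higher end of chromosome 6 (102 sites, 12.1 per Mb). Chromosome 5 was thus dense in the outer 5% at both ends. Relative to the body of its own chromosome, the higher end of chromosome 10 stood out most, at 3.55 times the density, followed by the higher end of chromosome 5 at 3.29 times and the lower end of chromosome 2 at 2.94 times.

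Crowding was not always found at both ends, and several chromosomes were lopsided. The higher end was denser than the lower end on 7 chromosomes, and the lower end was denser on the other 3, which were chromosomes 1, 2 and 3. Chromosome 2 had the steepest contrast, with 157 sites at its lower end and 41 at its higher end. That higher end, at 3.45 sites per Mb, was the sparsest of the 20 and the only one whose interval lay below an even spread, with 3.54% of the chromosome's sites (2.62 to 4.76). Chromosome 6 leaned the other way, with 33 sites at its lower end (4.31%, 3.08 to 5.99) and 102 at its higher end (13.3%, 11.1 to 15.9). The lower ends of chromosomes 4, 7, 8 and 9 held 48, 50, 46 and 42 sites, with shares of 5.98%, 6.04%, 5.23% and 5.30% whose intervals all included 5%. Across the 10 chromosomes the densities of the lower and higher end had a Spearman correlation of -0.24, which is a description of 10 points.

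**Figure D1:**
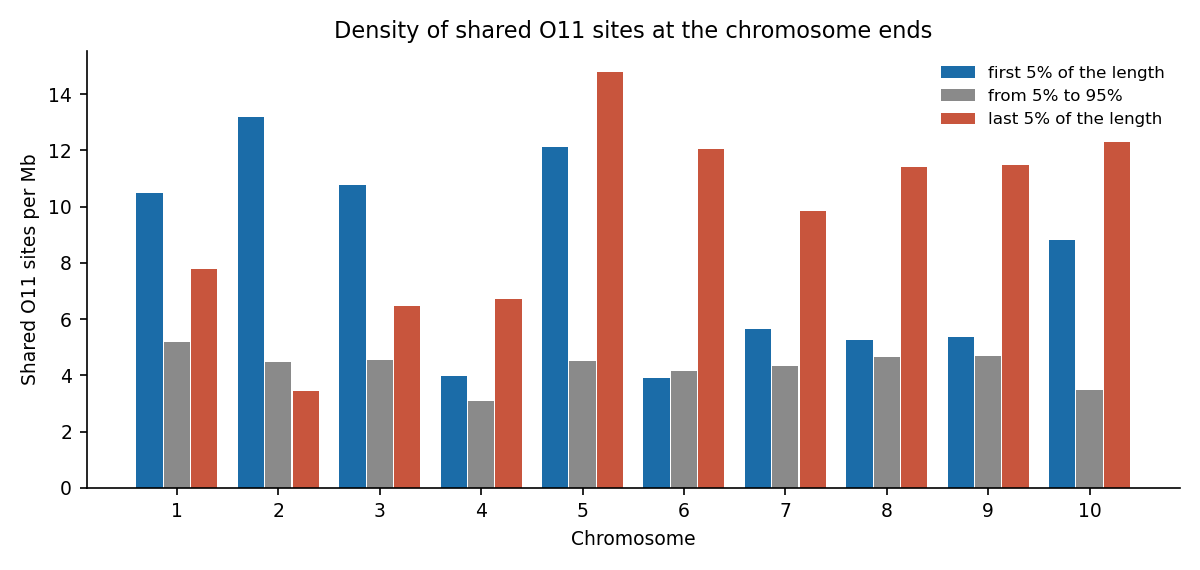
Bars give shared O11 sites per Mb (vertical axis, from 0) on each chromosome (horizontal axis) in the first 5%, the middle 90% and the last 5% of its length. The higher end of chromosome 5 reaches 14.8 sites per Mb, while the higher end of chromosome 2 and the lower end of chromosome 6 lie at 3.45 and 3.90, below the bodies of their chromosomes.

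The order of the ends was similar in each replicate taken alone, though some ranks changed. When all peaks of a list were counted, shared or not, the ends held 17.5% of the replicate 1 peaks (16.9 to 18.1) and 18.0% of the replicate 2 peaks (17.4 to 18.6). Densities at the 20 ends had a Spearman correlation of 0.93 between the lists. The higher end of chromosome 5 was the densest in replicate 2, with 22.2 peaks per Mb. In replicate 1 it stood at 19.13 per Mb, just below the 19.14 per Mb of the higher end of chromosome 9. The lower end of chromosome 2 had 17.0 per Mb in replicate 1, below the higher ends of chromosomes 6, 8, 9 and 10, and 20.9 in replicate 2. The higher end of chromosome 2 had 5.97 and 6.48 peaks per Mb, and the lower end of chromosome 6 had 5.91 and 6.03. The lower end of chromosome 4 had 5.87 and 7.53. These sparse ends were sparse in both lists, but their order changed. The sparsest was the lower end of chromosome 4 in replicate 1 and that of chromosome 6 in replicate 2.

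The very tips were thinner than the DNA just behind them. In the outermost 0.5% of the length there were 22 sites over the 10 lower ends (2.14 per Mb) and 36 over the 10 higher ends (3.50 per Mb). Density then climbed to a peak of 11.96 per Mb between 1.5% and 2% at the lower ends and of 13.2 per Mb between 2% and 2.5% at the higher ends. The outermost 1% held fewer sites than the next 1% at 19 of 20 ends, with 190 sites against 456 in all. The exception was the higher end of chromosome 3, with 7 against 5. In the full lists the outermost 1% held 316 against 627 peaks in replicate 1, where 17 of 20 ends showed this order and 2 had equal counts, and 356 against 727 in replicate 2, where 19 of 20 ends showed it. Assembled length beyond the last peak is not counted at the higher ends, so distances there are measured from the last peak and not from the physical tip.

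Behind the peak the lower and higher ends took different courses. At the lower ends density fell from 8.33 per Mb in the outer 5% to 6.50 per Mb in the adjoining band from 5% to 10%, and 8 of 10 chromosomes had fewer sites in the adjoining band. At the higher ends it was 9.20 per Mb in the outer 5% and 10.3 per Mb in the adjoining band, and 8 of 10 chromosomes had more sites in the adjoining band. In the full lists the order at the lower ends held on 8 of 10 chromosomes in each replicate. The order at the higher ends held on 6 of 10 in replicate 1 (13.4 against 14.4 peaks per Mb) and on 7 of 10 in replicate 2 (14.8 against 15.4). The crowding at the higher ends thus ran on inwards past the 5% line. Chromosome 6 had the sharpest drop at its lower end, from 33 sites in the outer 5% to 6 in the adjoining band of equal length. On chromosome 10 the lower end fell from 66 to 24 sites, and on chromosome 4 the higher end fell from 81 to 31.

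**Figure D2:**
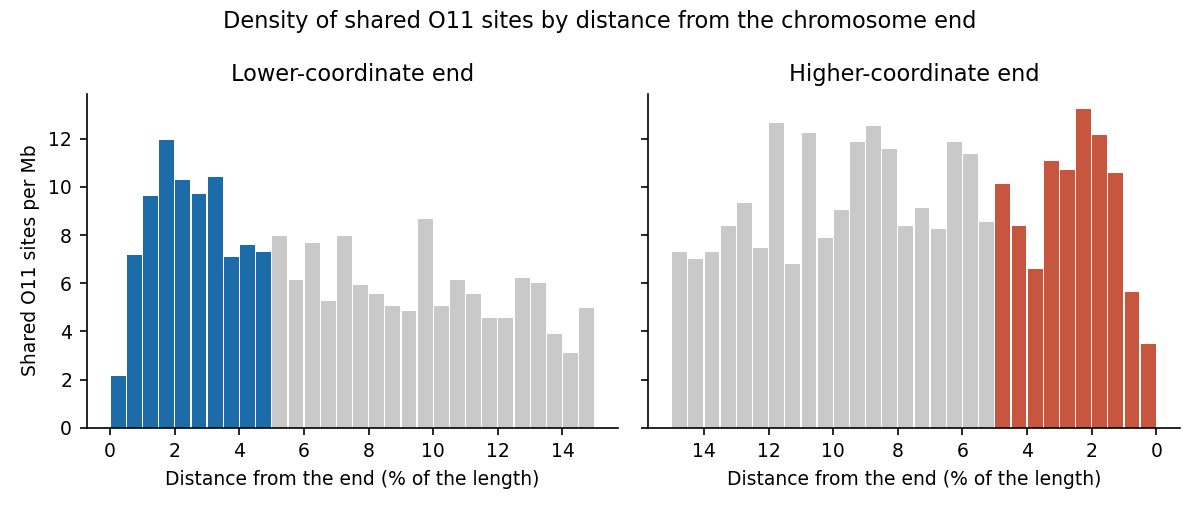
Bars give shared O11 sites per Mb over all 10 chromosomes (vertical axis, from 0) in steps of 0.5% of the length from the lower-coordinate end (left) and the higher-coordinate end (right, axis reversed), with the outer 5% coloured. Both ends start low, at 2.14 and 3.50 sites per Mb, and rise to 11.96 and 13.2 per Mb, after which the left profile falls away and the right one stays high.

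The densest megabases of the ends were on chromosome 6 from 164000001 to 165000000, with 31 sites, and on chromosome 5 from 6000001 to 7000000 and chromosome 8 from 171000001 to 172000000, with 29 each. Chromosome 10 from 147000001 to 148000000 and chromosome 5 from 210000001 to 211000000 had 24 each. At the other extreme, 2 of the 191 end windows were empty, both at the lower end of chromosome 4, from 1000001 to 2000000 and from 8000001 to 9000000. That end also had the longest stretch between neighbouring sites at any end, 1,642 kb. Empty windows were commoner in the rest of the chromosomes, at 240 of 1,841 (13.0%).

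Although sites were denser at the ends, their typical strength was close to that of sites elsewhere. Fold enrichment of end sites in replicate 1 spanned 2.46 to 32.0 with a median of 6.20 (order-statistic interval 6.04 to 6.30), and the other shared sites had a median of 6.12 (6.08 to 6.21). In replicate 2 it spanned 2.87 to 56.5 with a median of 8.87 (8.64 to 9.09), against 8.94 (8.83 to 9.08). On the log2 scale the ratio of the medians was 0.018 in replicate 1 and -0.011 in replicate 2, a mean of 0.0035 ± 0.021 (SD, n = 2), so its sign differed between the replicates. WT pileup had medians of 25 at the ends and 25 elsewhere in replicate 1, and of 26.6 and 27.4 in replicate 2. The o11 background had medians of 3.0 (2.93 to 3.03) at the ends and 3.12 (3.07 to 3.17) elsewhere in replicate 1, and of 2.0 at both in replicate 2.

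The distribution of strength was alike as well. A fold of at least 10 in both lists was reached by 183 end sites (10.1%, 8.84 to 11.6), and by 10.2% of all shared sites. A fold of at least 20 in both lists was reached by 6 end sites, which is 0.333% (0.153 to 0.724), against 0.355% of all shared sites. Of those 6, 5 were at lower ends and 1 at a higher end. When all shared sites were ranked by the product of their folds, the ends held 20 of the first 100 (20%, 13.3 to 28.9), 17.8% of the strongest 10% (15.5 to 20.3) and 18.6% of the weakest 10% (16.3 to 21.1). Each of these intervals included the 18.3% that the ends hold of the sites overall.

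Individual ends differed little in strength. Medians at the 20 ends lay between 5.07 and 6.76 in the first list and between 7.54 and 9.72 in the second. In both replicates the median lay above that of the chromosome's own body at 7 ends and below it at 9, and at 4 ends the replicates disagreed. The lower end of chromosome 4 had the lowest median in replicate 1, 5.07, and had 9.05 in replicate 2. The lower end of chromosome 6, also sparse, had 6.39 and 8.62, against 6.01 and 8.47 in the body of that chromosome. The higher end of chromosome 2, the sparsest, had the second lowest median in replicate 1 and the lowest in replicate 2. Its medians were 5.60 (4.61 to 5.92) and 7.54 (6.20 to 10.2), against 6.24 and 8.88 in the body of that chromosome. In replicate 1 the interval of this end did not meet that of the chromosome's body, and it was the only end of which this was true. In replicate 2 there were 0 such ends. The higher end of chromosome 8 was the strongest in replicate 2, with 9.72 (9.13 to 10.4), and had 6.48 (6.04 to 7.24) in replicate 1. The thin outermost 1% of the lower ends had medians of 6.11 (5.66 to 6.49) and 8.18 (7.64 to 9.43), and the next 1% had 6.11 (5.82 to 6.46) and 9.47 (8.89 to 10.3). At the higher ends the outermost 1% had 5.94 (5.66 to 6.48) and 8.67 (7.50 to 10.2), and the next 1% had 6.21 (5.83 to 6.59) and 8.65 (8.05 to 9.68). The intervals of the outermost and the next 1% overlapped in each of these 4 pairs.

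**Figure D3:**
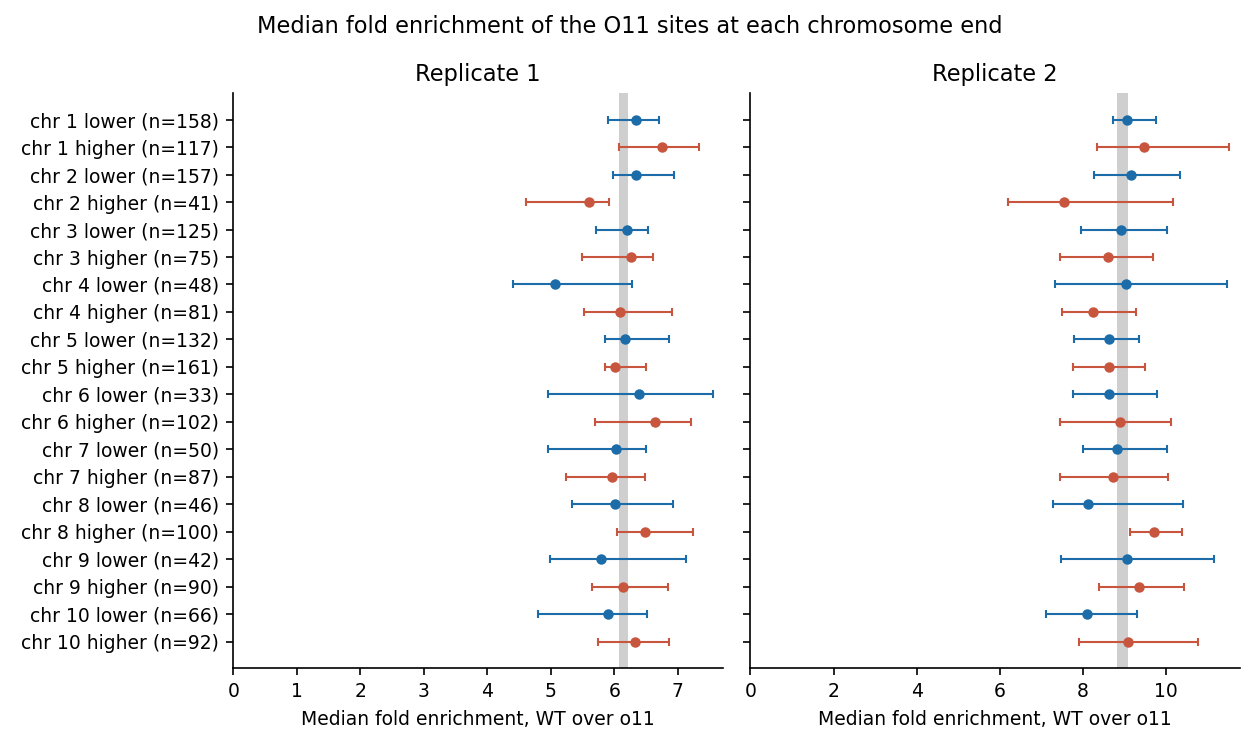
Points give the median fold enrichment of WT over o11 (horizontal axis) of the sites at each of the 20 ends, with the 95% order-statistic interval of the median, in replicate 1 (left) and replicate 2 (right). The grey band is the interval of the median of all other shared sites, and it meets the bar of every end but the higher end of chromosome 2 in replicate 1, to its left, and the higher end of chromosome 8 in replicate 2, to its right.

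By the product of its folds, the strongest end site lay at the lower end of chromosome 3, from 2626755 to 2628055 in B73 RefGen_v3. There the WT pileup was 61 over an o11 background of 1.62 in replicate 1, and 119.1 over 1.34 in replicate 2. The folds were 23.6 (exact Poisson interval from the WT reads, 18.2 to 30.3) and 51.3 (43.2 to 60.5). This site was picked by its folds, so WT coverage far above the o11 background was part of the choice. It was 1 of 2 end sites among the 10 strongest shared sites of all chromosomes. The other was at the lower end of chromosome 1, from 9163107 to 9163730, with WT pileups of 63 and 81.4 over backgrounds of 1.62 and 0.78. Both of its backgrounds were the lowest given in their lists.

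Chromosomes 9 and 10 supplied 6 of the 10 strongest end sites. On chromosome 9 the site from 150515344 to 150515976 had WT pileups of 83 and 131.96 over backgrounds of 1.62 and 3.0, and its replicate 1 fold of 32.0 (25.6 to 39.7) was the highest of any peak in that list. The site from 151746531 to 151747034 of the same end had pileups of 86 and 145.7 over 3.86 and 1.60. Its replicate 2 fold was 56.5 (48.3 to 65.5) and its replicate 1 fold 17.9 (14.4 to 22.1), so the order of these 2 sites was reversed between the replicates. Chromosome 9 also had a strong site at its lower end, at 3313085 to 3313785, where the fold was 23.2 (17.9 to 29.9) in replicate 1 and 45.5 (37.3 to 54.96) in replicate 2.

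Chromosome 10 held, at positions 5117713 to 5118669, the site with the highest WT coverage of all end sites. Its pileup was 142 over an o11 background of 6.17 in replicate 1 and 196.2 over 3.66 in replicate 2. Because that background was itself high, the folds were 19.9 (16.8 to 23.5) and 42.3 (37.05 to 48.1) and not the highest. In the same end a site at 3997738 to 3998161 reached folds of 18.8 (14.5 to 24.0) and 44.7 (36.5 to 54.1). The strongest site of its higher end, at 146402114 to 146402805, reached 17.2 (13.7 to 21.4) and 40.6 (33.7 to 48.7).

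The last 2 of the 10 were at lower ends. On chromosome 5 the site from 2888888 to 2890038 had pileups of 71 and 135.4 over backgrounds of 2.54 and 2.0. On chromosome 3 the site from 1599925 to 1600648 had pileups of 93 and 103.7 over 3.05 and 2.13. In all, 7 of the 10 strongest end sites were at lower ends and 3 at higher ends, they lay on 5 chromosomes, and 4 of them stood on the lowest background of replicate 1. Their summits in the 2 replicates were 3 to 108 bp apart, and all 10 lay at least 1,600 kb in from the end.

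The best site of an end, picked as the highest of its 33 to 161 sites by the product of folds, had a fold between 7.54 and 32.0 in replicate 1 and between 13.9 and 51.3 in replicate 2. The weakest of these best sites in replicate 1 was at the lower end of chromosome 7 (6542903 to 6543212), where the fold was 7.54 (5.32 to 10.4) against 21.8 (17.2 to 27.2) in replicate 2. In replicate 2 it was at the lower end of chromosome 6 (2384433 to 2385261), where it was 13.9 (11.3 to 16.9) against 20.3 (15.8 to 25.9) in replicate 1. That site had an o11 background of 2.19 in replicate 1 and 5.0 in replicate 2, and it was the only best site besides that of the higher end of chromosome 2 at which the replicate 1 fold was the higher.

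Other ends had best sites of their own. At the higher end of chromosome 7 a site at 172482746 to 172483189 reached 19.9 (15.3 to 25.6) and 32.7 (26.8 to 39.7). Though sparse, the higher end of chromosome 2 had a site at 226502856 to 226503728 that reached 20.6 (15.5 to 26.8) and 17.8 (13.7 to 22.7). The higher ends of chromosomes 8, 3, 1 and 5 had best sites with replicate 1 folds of 16.2, 17.1, 15.7 and 14.8 and replicate 2 folds of 41.1, 33.9, 37.8 and 35.2. On chromosome 4 the best site of the higher end (238978820 to 238979298) had a fold of 9.28 (6.51 to 12.9) in replicate 1 and 39.9 (32.4 to 48.5), the most unequal pair among them.

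**Figure D4:**
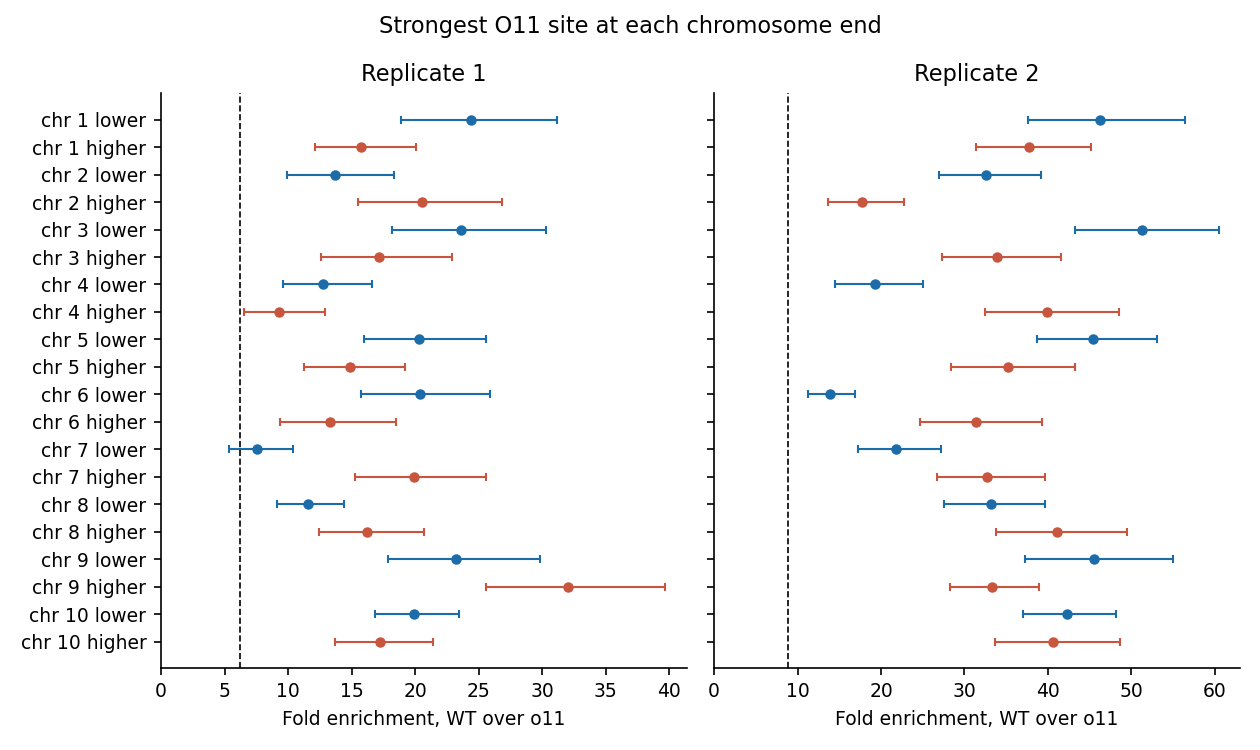
Points give the fold enrichment of WT over o11 (horizontal axis) of the strongest site at each of the 20 ends, with its exact Poisson interval from the WT reads, in replicate 1 (left) and replicate 2 (right). The dashed line is the median of all end sites, 6.20 and 8.87, above which a site picked as the highest of its end lies almost by choice. The points spread from 7.54 to 32.0 and from 13.9 to 51.3.

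The outermost site of an end had a fold above the end-site median at 6 of 20 ends in replicate 1 and at 11 of 20 in replicate 2, and at 6 ends in both. At the lower ends it lay between 30.2 and 999.9 kb from the start of the chromosome, with a median of 387.6 kb. Chromosome 4 had the nearest (29881 to 30352), with folds of 5.62 (3.45 to 8.71) and 6.52 (3.91 to 10.3), and chromosome 9 the farthest. Chromosome 2 had the strongest of them (179732 to 180089), where WT pileups of 38 and 58.3 over backgrounds of 2.83 and 1.17 gave folds of 10.2 (7.28 to 13.9) and 27.3 (21.3 to 34.5). At the higher ends of chromosomes 1, 4, 7 and 9 a shared site was itself the last peak of the chromosome, with its summit 0.289, 0.254, 0.207 and 0.472 kb from the last base used. These 4 had folds of 7.56, 8.85, 10.5 and 13.1 in replicate 1 and of 19.1, 19.0, 18.3 and 10.5 in replicate 2, each above the end-site median of its list.

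Sites at the ends were as sharply placed as elsewhere. The median width was 426 bp (416 to 438) in replicate 1 and 402 bp (394 to 413) in replicate 2, against 427 and 404 bp in the other shared sites. The summits of the 2 replicates were a median of 43 bp apart (41 to 46) at the ends and 43 bp (42 to 44) elsewhere. They lay within 100 bp at 81.03% of end sites (79.2 to 82.8) and at 80.9% of the other shared sites. Between the ends the distance was 40 bp (37 to 45) at lower and 46 bp (43 to 51) at higher ends. By the narrower of its 2 widths, the widest end site was at the higher end of chromosome 6, from 162278252 to 162281094, measuring 2,843 bp in the first list and 2,619 bp in the second, with folds of 13.3 and 31.3. It was also the best site of that end. The next pair by this measure lay close together at the lower end of chromosome 2, from 5857160 to 5859100 and from 5839957 to 5841843. These 3 were picked by their width.

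Strength at a site carried over between replicates in part. Across the 1,803 end sites the fold enrichments had a Spearman correlation of 0.52, and across the other shared sites 0.49, where the points share libraries and are given as a description. The fold was higher in replicate 2 at 1,502 end sites (83.3%), against 82.5% of all shared sites, and the lists differ in the scale of their folds. The site that leaned most towards replicate 2 was at the lower end of chromosome 2, from 4272681 to 4273001, where the pileup was 15 over a background of 3.77 in replicate 1 and 36.9 over 0.92 in replicate 2. The site that leaned most towards replicate 1 was at the higher end of chromosome 6, from 168383920 to 168384269, with pileups of 24 and 14.6 over backgrounds of 1.71 and 3.41. Both were picked for their values.

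Of the replicate 1 peaks in the ends, 1,803 of 2,581 (69.9%, 68.1 to 71.6) had a partner, against 66.2% (65.4 to 67.03) of those outside. From the replicate 2 side it was 1,843 of 2,890 (63.8%, 62.0 to 65.5), against 62.3% (61.5 to 63.1) outside, where 62.6% of all replicate 2 peaks on these chromosomes had one. Sharing is part of the choice of sites, so these shares are description. Unshared peaks at the ends were weak, with median folds of 4.67 and 6.48 in replicates 1 and 2. Those outside the ends were much the same, with 4.62 and 6.46. A few unshared peaks at the ends were strong, and all of those named here were picked for their values. The strongest lay in the replicate 2 list at the lower ends of chromosome 7, from 2429217 to 2429602 (30.4, 23.4 to 38.8), of chromosome 2, from 9418710 to 9419135 (25.6, 19.8 to 32.6), and of chromosome 4, from 2260353 to 2260611 (21.2, 15.5 to 28.4). The strongest unshared peak of replicate 1 in the ends, from 227021484 to 227022346 on chromosome 3, had a fold of 11.05 (7.48 to 15.8). An unshared peak is one whose place missed the authors' threshold in the other list, which need not mean that no signal was there.

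End sites often stood close together. The median distance between neighbouring summits was 53.6 kb at the ends and 96.1 kb elsewhere, and 390 of 1,783 neighbouring pairs at the ends (21.9%, 20.02 to 23.9) were within 5 kb, against 16.0% (15.3 to 16.9) elsewhere. The adjoining bands from 5% to 10% and from 90% to 95% were like the ends, with a median of 51.2 kb and 21.8% of pairs (19.9 to 23.9) within 5 kb. Sites were also set side by side within windows of like density. Closer spacing in fuller windows is built in, since the same sites give both the count and the spacing. In 1 Mb windows with 15 or more sites, the next summit was within 5 kb for 30.8% of end sites (27.5 to 34.2) and 30.6% of the others (27.9 to 33.5). With 10 to 14 sites the shares were 20.6% (17.0 to 24.7) and 22.2% (20.4 to 24.1), and with 5 to 9 they were 14.7% (11.8 to 18.0) and 14.9% (13.6 to 16.2). With 1 to 4 sites they were 6.38% (3.39 to 11.7) and 5.20% (4.35 to 6.21). At equal local density the intervals of end sites and other sites overlapped in all 4 classes. By end, the share ran from 1 of 40 pairs (2.5%) at the higher end of chromosome 2 to 31 of 101 (30.7%) at the higher end of chromosome 6.

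**Figure D5:**
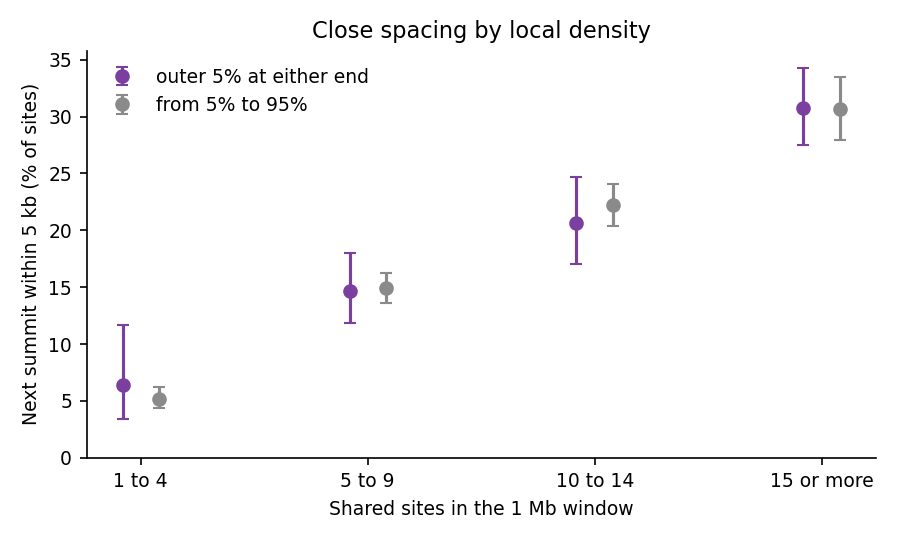
Points give the percent of shared sites whose next summit lay within 5 kb (vertical axis) by the number of shared sites in their 1 Mb window (horizontal axis), with Wilson 95% intervals, for end sites and for all others. Both rise together, from 6.38% and 5.20% in the thinnest windows to 30.8% and 30.6% in the fullest. The rise itself is built in, since the same sites give the count and the spacing.

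The largest runs within 50 kb held 10 end sites each. In the run on chromosome 2, spanning 45.2 kb from 2058822, the folds had medians of 6.58 and 8.30, and the site from 2081803 to 2082887 within it was the best of its end, with 13.7 (9.93 to 18.3) and 32.6 (26.9 to 39.1). In the run on chromosome 6, spanning 35.6 kb from 164751094, the medians were 6.39 and 7.82. Runs of 8 lay at both ends of chromosome 5, with medians of 4.54 and 6.51 at the lower end and of 4.34 and 5.56 at the higher end, all below the end-site medians. A run of 8 on chromosome 8, spanning 37.9 kb from 171164543, was stronger, with medians of 7.98 and 11.3 and a site reaching 19.8 in replicate 1. Membership in a large run thus went with high folds in some places and low folds in others.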

How the data were processed

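Per the labels, each replicate has a peak list of its own, with WT as the ChIP sample and o11 as the control. The submitters' processing notes name the build B73 RefGen_v3, the aligner Bowtie2 2.3.2 and the peak caller MACS2 2.1.0; filters and settings were not given in the sources used here. Per the file headers, the deposited columns are positions, the pileup (coverage) at each summit and the fold enrichment, which is a ratio. The pileup header names no sample. It was read as WT coverage, and the fold as WT over local o11 background, because the labels make WT the ChIP sample and o11 the control. The authors' -log10 p and -log10 q columns have damaged names and were recognised from their values. Depth is unknown.

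Where several replicate 2 peaks overlapped a site, the nearest summit gave its partner, and 16 end sites shared a partner. Backgrounds were rounded to 2 decimals. Intervals printed beside values are Wilson for shares, order-statistic for medians and exact Poisson for folds at a fixed background. All are at 95% and for counting error only, and they treat sites as independent. Positions are 1-based. Named sites were the 10 strongest, the strongest and outermost of each end, those nearest the thresholds and the 5 largest runs; others are stated as picked for their values. Sites, measures and rules were chosen with earlier results of these data known. The code (Python 3.11.15, scipy 1.17.1) was tested on simulated data. Genes, motifs and sequences were not analysed here, since no genome of this build was used.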

Additional observations from a re-analysis of the deposited data

How the results depend on the processing

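Of 178 alternative values, 135 stayed within the interval of the main value, or within 1.5 times for counts. The other 43 moved further, many by construction. For the log2 ratio that interval was the mean ± SD of the 2 replicates and not a 95% interval. For the correlation it was a 95% interval by Fisher's transformation. The log2 ratio of median folds, end sites over the rest, had no stable sign and stayed between -0.013 and 0.031; it was 0.026 against the adjoining bands. A within-chromosome version was added after the data were seen. The number of ends above an even spread stayed between 16 and 18.

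Ends of 2.5% of the length held 888 sites (424 lower, 464 higher; 9.01% of shared sites), with median widths of 414.5 and 393.5 bp. Ends of 10% held 3,527 (1,526 and 2,001; 35.8%), and 65.7% of their replicate 2 peaks had a partner. Reciprocal overlap of 50% gave partners to 62.6% and 55.9% of replicate 1 and 2 peaks, with 18.9% of neighbours within 5 kb. Partners by summits within 100 bp gave 56.6% and 50.6%, median folds of 6.33 and 9.19, a replicate 1 width of 414 bp, a summit distance of 34 bp and 17.3% of neighbours within 5 kb. At -log10 q of at least 5 the median folds were 6.49 and 9.35, the widths 442 and 417 bp, the partner shares 74.5% and 60.5%, and the near neighbours 19.6%. Within 2 and 20 kb the near neighbours were 11.5% and 35.1%.

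Leaving out a replicate means using all peaks of the other list. Replicate 1 alone had 2,581 peaks at the ends (1,199 lower, 1,382 higher; 17.5%) and replicate 2 alone 2,890 (1,367 and 1,523; 18.0%). Median folds were 5.54 and 7.69, widths 383 and 345 bp, near neighbours 25.9% and 26.4%, the replicate 1 background 2.83 and the replicate 2 background 2.0, and the log2 ratio 0.031 and 0. Summit distances and shares with a partner cannot be had from a single list. No paired analysis was possible because WT is already set against the o11 library of the same number within a list. Library depth, which limits the weakest calls, is unknown.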
